A study of Mus musculus with 12 samples.

Results

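The expression of 57 genes for guidance ligands (ephrins, semaphorins, netrins and slits) and their receptors was followed in mouse embryonic stem (ES) cells with and without Notch1. The 57 genes are a chosen list and not whole families, taken with earlier results of these data known: Eph receptors and ephrins, semaphorins with plexins and neuropilins, netrins with the Unc5, Dcc and Neo1 receptors, and slits with robos. A further 21 genes of these families are outside the list and are counted at the end. Expression was measured per locus of the authors' assembled transcripts (mm9, 40039 loci), to which 16228 annotated genes could be linked by the lengths of their exons and introns. Of the 57 genes, 53 had a locus of their own, and all 53 passed the filter on low counts that left 23991 loci for testing. The other 4, Efna4, Efnb3, Plxnb2 and Sema4c, lay in loci assembled together with a neighbouring gene and have no value of their own.

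The cells were ES cells of the C57BL/6J strain, either WT or Notch1-/- (Notch1 deleted), and both were harvested undifferentiated (day 0) and as embryoid bodies after 6 days of a cardiac differentiation protocol (day 6). Embryoid bodies are floating aggregates in which ES cells form early derivatives of the germ layers, here started from hanging drops of 1000 cells. Each of the 4 groups had 3 poly(A) RNA libraries, and all values below are over n = 3 libraries per group. Undifferentiated cells of both genotypes were grown on feeder fibroblasts or gelatin with LIF at 1000 U/ml. The labels do not say which library came from which surface, which part of Notch1 was deleted or how many clones were used. The design text speaks of biological replicates without saying that they were separate cultures, so p-values measure the spread between these libraries.

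Guidance cues steer moving cells and growing axons by attraction or repulsion, and most of them were first studied in the nervous system and later in blood vessels and the heart. Eph receptors are receptor tyrosine kinases that bind ephrins on the surface of a neighbouring cell, and the contact signals into both cells; A-type ephrins are held by a lipid anchor and B-type ephrins cross the membrane. Semaphorins act through plexins, and most secreted class 3 semaphorins need a neuropilin as co-receptor, which also binds vascular endothelial growth factor. Netrins bind Dcc, Neo1 and the Unc5 receptors, and slits bind robos. Notch1 is a receptor for ligands on adjacent cells, and its cleaved intracellular part acts in the nucleus with the DNA-binding protein RBPJ.

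The libraries held 100637179 to 134662426 counted reads, and levels are given as CPM, counts scaled to a common library size with TMM factors, or, where genes are compared with one another, as the authors' FPKM, which corrects for length. Notch1 itself was at 61.6, 24.7 and 34.0 CPM in WT day 0 and 38.0, 30.9 and 31.1 CPM in WT day 6. Its Notch1-/- libraries were at 3.80, 3.87 and 4.59 CPM (day 0) and 6.80, 4.90 and 4.95 CPM (day 6), so every library matched its label. Summed fibroblast markers (21 of 22 listed genes linked) ranged from 1190 to 3970 CPM in WT day 0, 628 to 2400 in Notch1-/- day 0, 1450 to 1930 in WT day 6 and 196 to 213 in Notch1-/- day 6. Col1a1 had the most reads of them in every WT day 6 library. Between the days, 12 of the 21 fell and 2 rose in WT (median log2 change -1.92), and 19 fell and none rose in Notch1-/- (-3.48). These were 66.7% and 90.5% called, beside 43.1% and 35.9% of all loci. Only Fap was under 0.1 CPM in whole groups, at day 6 in both genotypes. Cardiac mesoderm markers (13 of 15) summed to 28.3 to 60.4 CPM in all day 0 libraries, 596 to 858 in WT day 6 and 142 to 376 in Notch1-/- day 6, with none under 0.1 CPM. Tbx20 and Pdgfra had the most reads of them in every WT day 6 library. Of the 13, 7 were called lower and 1 higher in Notch1-/- at day 6 (61.5%, beside 28.1% of all loci). Myl7 and Actc1 had more counted reads in every Notch1-/- day 6 library than in any WT day 6 library. Endothelial markers (13 of 16) summed to 188 to 316 CPM at day 0, 671 to 887 in WT day 6 and 311 to 571 in Notch1-/- day 6. Kdr and Flt1 had the most reads of them in every Notch1-/- day 6 library. Cdh5, Tie1, Fli1 and Erg were at 225 counted reads or fewer there. Of the 13, 10 were called lower and none higher in Notch1-/- at day 6 (76.9%, beside 28.1% of all loci). Sox17 was under 0.1 CPM in all groups and Emcn in all but WT day 6. Neural markers (8 of 15) summed to 301 to 411 CPM in WT day 0, 458 to 582 in Notch1-/- day 0, 59.1 to 70.8 in WT day 6 and 206 to 262 in Notch1-/- day 6. Stmn2 had the most reads of them in every Notch1-/- library. Of the 8, 5 were called higher and none lower in Notch1-/- at day 6 (62.5%, beside 28.1% of all loci). Dcx was under 0.1 CPM at day 0. Visceral endoderm markers (13 of 15) summed to 168 to 353 CPM at day 0, 627 to 725 in WT day 6 and 314 to 619 in Notch1-/- day 6. Lrp2 had the most reads of them in every Notch1-/- day 6 library. Of the 13, 9 were called lower and 2 higher in Notch1-/- at day 6 (84.6%, beside 28.1% of all loci). Ttr, Afp and Sox17 were under 0.1 CPM at day 0, and Sox17 also at day 6. Pluripotency markers (12 of 15) summed to 2290 to 3700 CPM at day 0, 533 to 717 in WT day 6, where Tdgf1 was under 0.1 CPM, and 803 to 1250 in Notch1-/- day 6. Library 3 of Notch1-/- day 6 had the lowest cardiac (142 against 376 and 321 CPM) and endothelial (311 against 571 and 433 CPM) sums of its group. Since the RNA came from whole cultures, fewer cells of a type and less RNA per cell cannot be told apart, and the part of cell composition in the differences below was not tested.

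More guidance genes rose than fell between day 0 and day 6 in both genotypes, and the genotypes differed at day 6 in both directions. In WT cells 25 members rose and 10 fell between day 0 and day 6 (66.0% of the 53, where 43.1% of all tested loci were called at adjusted p under 0.05, 18.4% higher and 24.7% lower). Of the members, 29 were higher and 12 lower in WT day 6 without overlap of the libraries, beside 25.1% and 28.7% of all loci. In Notch1-/- cells 27 rose and 5 fell (60.4%, against 35.9% of all loci, 17.2% higher and 18.7% lower), and 31 were higher and 5 lower without overlap, beside 24.9% and 24.4% of all loci. The median log2 change of the members was 0.92 in WT and 1.14 in Notch1-/-, beside -0.12 and -0.02 for all loci. With upper quartile scaling the medians of all loci moved to -0.29 and -0.18, and the share of higher calls among all called loci in Notch1-/- moved from 47.8% to 37.1%, while that among called members moved from 84.4% to 82.8%. In 19 members the rise was called in both genotypes (76.0% of the WT and 70.4% of the Notch1-/- rises, beside 48.9% and 52.4% over all loci). Epha2, Sema3c, Sema4b and Robo4 fell in both (40% of the WT and 80% of the Notch1-/- falls, beside 49.1% and 64.8% over all loci). Ntn1 fell in WT and rose in Notch1-/-, and Nrp2 did the reverse. Of the others, 7 were called higher in Notch1-/- alone, 5 higher and 5 lower in WT alone, and 11 in neither, and being called in 1 genotype only does not show a difference between them. The difference itself, the change in Notch1-/- minus the change in WT, was called for 14 members (26.4%, against 11.3% of all loci). It was positive for 9 and negative for 5 members, beside 6.36% and 4.92% of all loci.

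**Figure D1:**
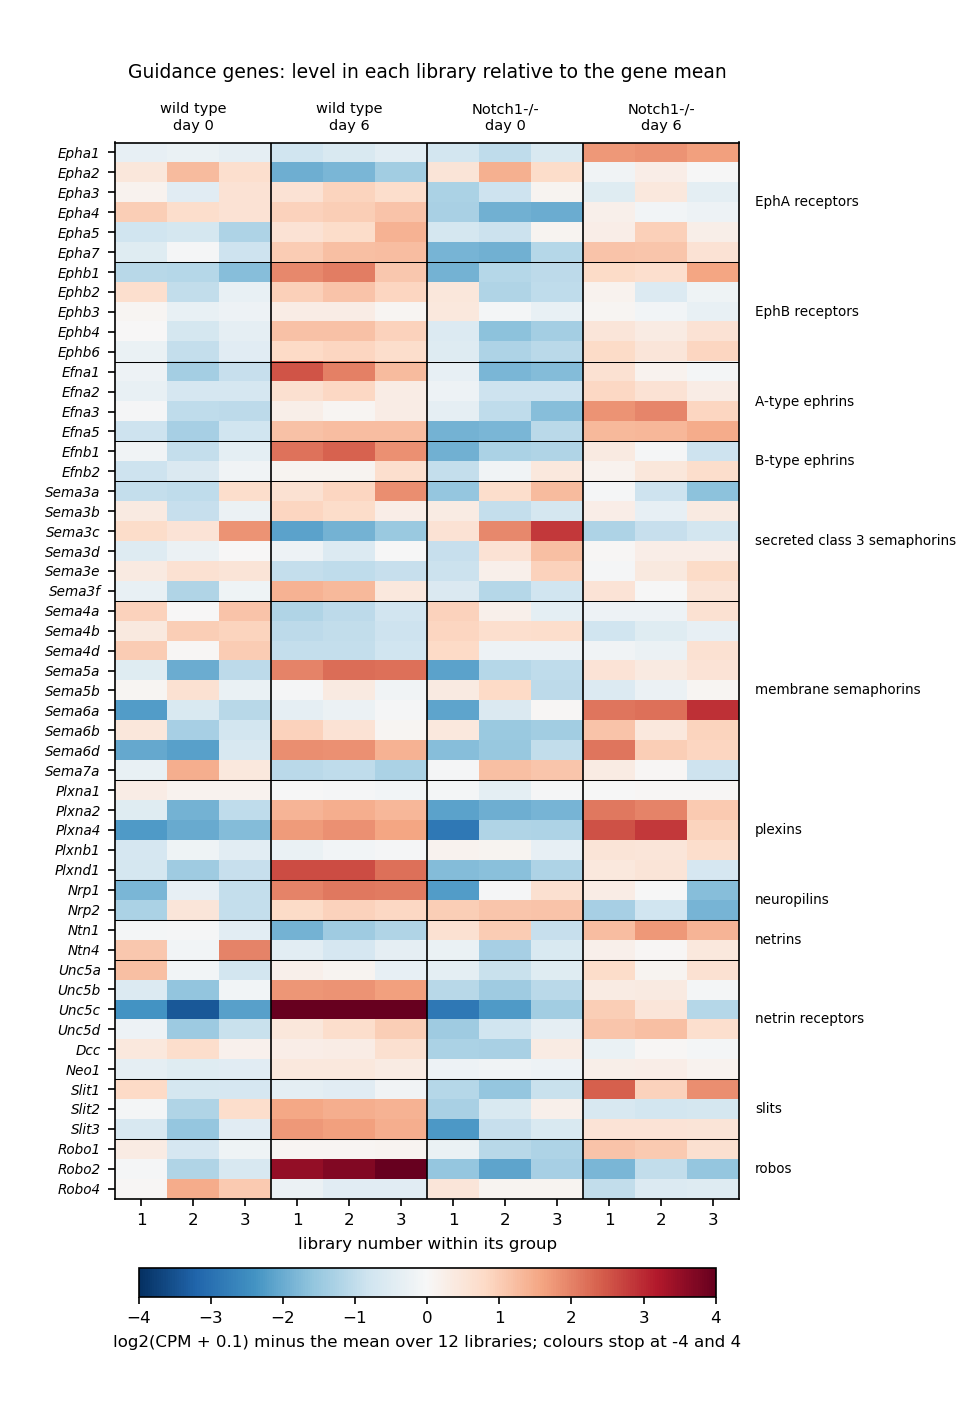
Level of each of the 53 guidance genes with a locus of its own (rows, by family) in each of the 12 libraries (columns, by group), as log2(CPM + 0.1) minus the gene's mean over the libraries; the colours stop at -4 and 4. Unc5c, Robo2, Nrp1 and Plxnd1 are highest in the 3 WT day 6 libraries, while Epha1, Ntn1 and Slit1 are highest in the 3 Notch1-/- day 6 libraries.

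**Figure D2:**
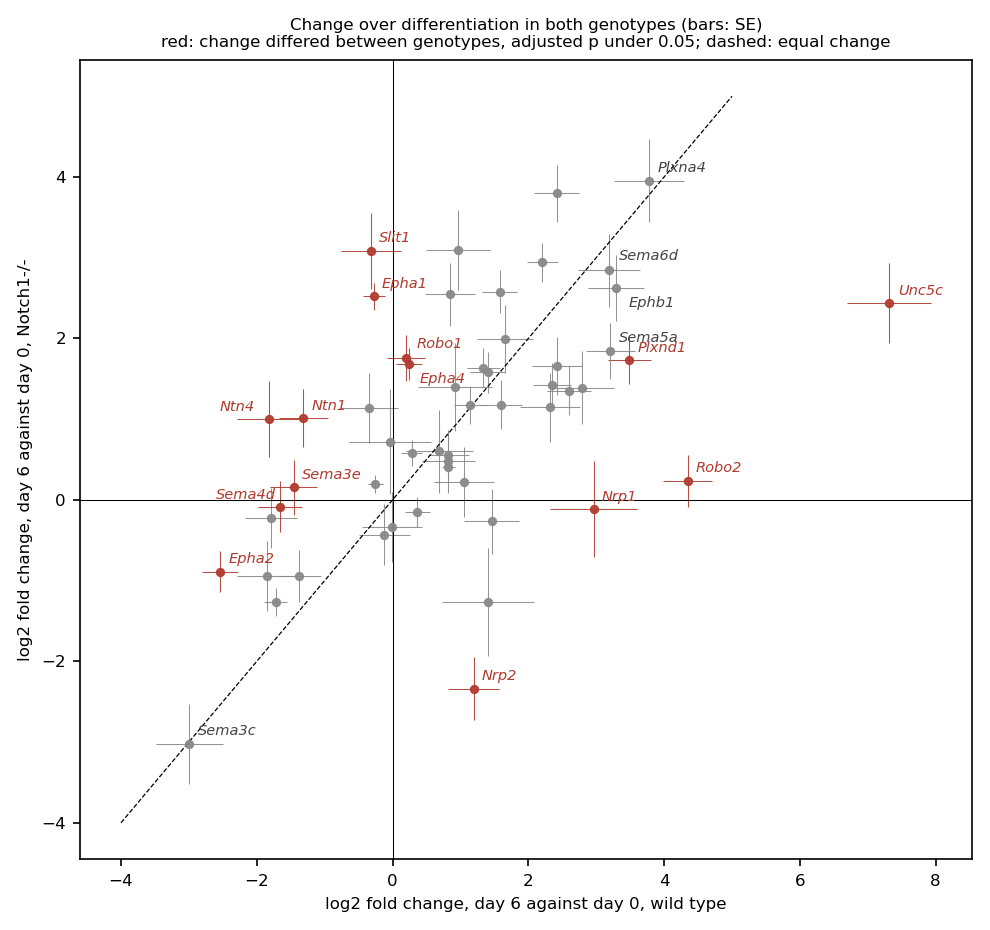
Log2 change from day 0 to day 6 in WT (horizontal axis) and in Notch1-/- (vertical axis) for the 53 members, with bars of 1 SE; on the dashed line both genotypes changed equally, and the 14 members in red passed the test of the difference between the changes. Unc5c, at 7.32 in WT and 2.44 in Notch1-/-, and Robo2, at 4.35 and 0.24, lie far below the line, and Slit1, Epha1 and Ntn1 lie above it.

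Sequences upstream of the start sites are shown for 4 members that differed between the genotypes at day 6: Unc5c and Efnb1 were lower and Epha1 higher in Notch1-/- at day 6, and Epha4 was lower at both days. Each is the 250 bases before the annotated start, 5′ to 3′ on the gene's strand, from RefSeq (GRCm38.p6), at chr3:141465314-141465563 (plus strand) for Unc5c, chrX:99135811-99136060 (plus) for Efnb1, chr6:42373269-42373518 (minus) for Epha1 and chr1:77515089-77515338 (minus) for Epha4. Capitals mark TGGGAA, the core of the motif bound by RBPJ, or its reverse complement TTCCCA.
Unc5c: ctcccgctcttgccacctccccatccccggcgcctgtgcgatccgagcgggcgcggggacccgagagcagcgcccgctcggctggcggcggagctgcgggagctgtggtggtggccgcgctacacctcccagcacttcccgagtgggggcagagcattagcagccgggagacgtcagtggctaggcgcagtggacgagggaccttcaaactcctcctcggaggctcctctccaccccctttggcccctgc
Efnb1: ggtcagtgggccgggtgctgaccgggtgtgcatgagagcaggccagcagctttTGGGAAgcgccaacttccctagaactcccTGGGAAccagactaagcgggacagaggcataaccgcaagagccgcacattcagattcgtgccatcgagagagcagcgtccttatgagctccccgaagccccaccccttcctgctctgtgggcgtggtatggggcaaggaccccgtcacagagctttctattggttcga
Epha1: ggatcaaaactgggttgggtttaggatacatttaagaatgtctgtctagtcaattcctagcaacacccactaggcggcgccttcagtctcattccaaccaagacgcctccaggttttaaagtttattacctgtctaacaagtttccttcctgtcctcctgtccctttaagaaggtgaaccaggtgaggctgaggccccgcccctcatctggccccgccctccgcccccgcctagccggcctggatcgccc
Epha4: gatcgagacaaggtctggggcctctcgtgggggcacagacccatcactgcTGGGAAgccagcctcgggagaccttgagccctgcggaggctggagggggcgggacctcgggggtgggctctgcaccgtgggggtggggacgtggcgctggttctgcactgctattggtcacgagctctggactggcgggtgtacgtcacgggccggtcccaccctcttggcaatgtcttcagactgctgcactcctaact
The Efnb1 window held 2 matches, the first beginning 197 bases before the start, the Epha4 window held 1 match beginning 200 bases before the start, and the Unc5c and Epha1 windows held none. RefSeq promoters were matched for 47 of the members, and 9 of these 47 genes held the letters in such a window (19.1%, beside 24.1% of all 27025 genes in the table). CACGTG, the same on both strands and a motif bound by Hes and Hey repressors, was in 3 of the 47 (6.38%, beside 6.86% of all genes). A match is only a match of letters, and a window without one says nothing on the factor.

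Ntn1 fell in WT and rose in Notch1-/-, a rise that 9 alternatives lost, and a netrin receptor, Unc5c, showed the largest change of the 53. Ntn1 encodes netrin-1, a secreted cue for the Dcc and Unc5 receptors (chr11:68022842-68214470). It was at 54.5, 54.9 and 42.9 CPM in WT day 0 and 15.3, 21.4 and 24.6 CPM in WT day 6. The Notch1-/- libraries were at 88.1, 116 and 30.3 CPM (day 0) and 136, 189.7 and 147 CPM (day 6). At day 6 all 3 Notch1-/- libraries lay above all WT libraries, whereas at day 0 the genotypes overlapped. Ntn1 fell in WT by 1.31 on the log2 scale (SE 0.36, adjusted p = 0.0111) and rose by 1.01 (SE 0.36, adjusted p = 0.0439) in Notch1-/-. The 2 changes differed by 2.32 (SE 0.51, adjusted p = 0.0122). The fall was not called without WT day 6 library 1 (-1.13), and the rise was not called without Notch1-/- day 0 library 1 or 3 (1.09 and 0.61) or any 1 Notch1-/- day 6 library (0.85 to 1.12). The rise was also not called with upper quartile scaling (0.86), RLE scaling (0.96), only the groups compared (0.98) or day 0 library 3 of both genotypes left out (0.62). Ntn4, a netrin of basement membranes, was low throughout, at 2.54, 1.06 and 4.90 CPM in WT day 0 and 0.845, 0.685 and 0.880 CPM in WT day 6. Notch1-/- libraries were at 0.942, 0.404 and 0.732 CPM (day 0) and 1.36, 1.20 and 1.59 CPM (day 6). It fell in WT by 1.82 (SE 0.47, adjusted p = 0.00802), a change of -1.16 without WT day 0 library 3, its highest library. The Notch1-/- change was 1.00 (SE 0.47, adjusted p = 0.115), and the difference of the changes, 2.82 (SE 0.67, adjusted p = 0.0173), was lost in 5 alternatives. These were the 3 limma fits on FPKM (0.665 to 1.97), the fit without WT day 6 library 2 (2.71) and that without day 0 library 3 of both genotypes (2.21). The fall of Ntn4 in WT was lost in 3, of which 2 were limma fits on FPKM (-1.11 and -0.434) and 1 left out day 0 library 3 of both genotypes (-1.17).

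Unc5c, a receptor through which netrins repel (chr3:141128528-141497892), was at 2.59, 1.24 and 2.99 CPM in WT day 0 and 1.84, 2.82 and 5.22 CPM in Notch1-/- day 0. By day 6 it stood at 410.1, 373 and 306.5 CPM in WT and 27.8, 19.5 and 6.26 CPM in Notch1-/-. Every day 6 library was above every day 0 library, and at day 6 the lowest WT library, at 306.5 CPM, stood far above the highest Notch1-/- library, at 27.8 CPM. The rise was 7.32 (SE 0.62, adjusted p = 4.69e-06) in WT and 2.44 (SE 0.50, adjusted p = 0.0026) in Notch1-/-, and these differed by -4.88 (SE 0.71, adjusted p = 0.00123). Notch1-/- day 6 library 3 was the lowest of its group, and without it the day 6 difference between genotypes was -3.93 where it was -4.35 with all 3. Unc5b, a netrin receptor known from endothelial tip cells, went from 143, 70.3 and 194 to 708, 715 and 645 CPM in WT. Its Notch1-/- libraries went from 96.5, 77.9 and 97.5 to 264, 267 and 199 CPM. It rose in both genotypes, by 2.35 (SE 0.28, adjusted p = 5.26e-05) and 1.42 (SE 0.27, adjusted p = 0.00173). It was lower in Notch1-/- at day 6 (-1.50, SE 0.27, adjusted p = 0.00163) without overlap of the libraries. Neo1, which also binds repulsive guidance molecules, rose in both genotypes by 0.82 and 0.41, its libraries going from between 94.7 and 119 CPM at day 0 to between 146 and 177 CPM at day 6. The Notch1-/- rise was not called with upper quartile scaling (0.254). Unc5d rose in both as well (1.66 and 1.99) but reached only 2.30 CPM at most. Unc5a and Dcc, the receptor for attraction by netrins, passed no test, with Dcc at 0.44 CPM or less in every library.

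**Figure D3:**
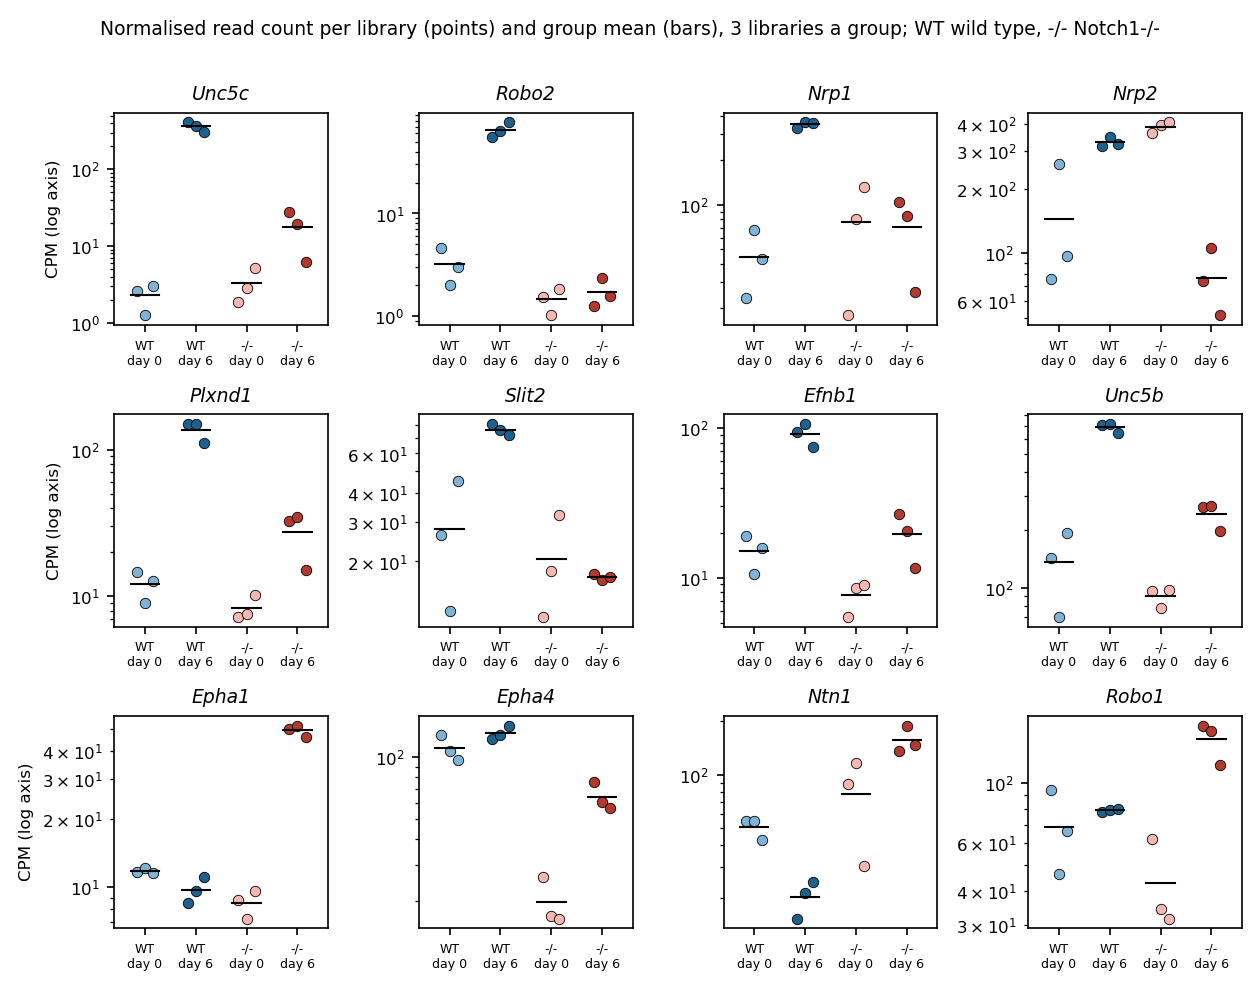
CPM on a log axis of 12 guidance genes in each library, grouped by genotype and day; points are libraries and bars are the mean of 3. Unc5c reaches 306.5 to 410.1 CPM in WT day 6 and 6.26 to 27.8 CPM in Notch1-/- day 6, and Robo2 lies at 55.6 to 76.9 CPM in WT day 6 and at 1.26 to 2.34 CPM in Notch1-/- day 6.

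The slit receptors Robo1 and Robo2 differed between the genotypes in opposite directions at day 6. Robo2, a slit receptor (chr16:73891808-74412775), was at 4.59, 2.00 and 3.01 CPM in WT day 0 and 55.6, 63.0 and 76.9 CPM in WT day 6. The Notch1-/- libraries were at 1.55, 1.02 and 1.82 CPM (day 0) and 1.26, 2.34 and 1.57 CPM (day 6). No Notch1-/- library at either day reached the lowest WT library of day 6. The WT rise was 4.35 (SE 0.36, adjusted p = 4.06e-06) and the Notch1-/- change was 0.24 (SE 0.32, adjusted p = 0.598). The difference between them was -4.11 (SE 0.47, adjusted p = 0.000282). Robo1, a receptor for the same ligands, showed another order, with 94.4, 46.4 and 66.2 CPM in WT day 0 and 78.2, 79.3 and 80.0 CPM in WT day 6. Its Notch1-/- libraries were at 62.4, 34.4 and 31.7 CPM (day 0) and 162, 155 and 116 CPM (day 6). It rose in Notch1-/- by 1.75 (SE 0.28, adjusted p = 0.000533) beside a WT change of 0.20 (SE 0.27, adjusted p = 0.587). The difference of the changes was 1.56 (SE 0.39, adjusted p = 0.0223). Its day 6 genotype difference of 0.87 was lost without any 1 WT day 6 library (0.86 to 0.88) or Notch1-/- day 6 library 1 or 2 (0.785 and 0.81). The limma fits on FPKM did not call that genotype difference either. The difference of the changes was lost without any 1 of the 3 WT day 6 libraries (1.55 to 1.56), without Notch1-/- day 0 library 2 or 3 (1.40 and 1.36) and without Notch1-/- day 6 library 1 or 2 (1.47 and 1.49). Robo4, a member of the family known from endothelium, fell in WT from 3.65, 10.1 and 7.37 to 3.02, 2.54 and 2.54 CPM (-1.38, SE 0.33, adjusted p = 0.0045). Values in Notch1-/- were at 4.97, 3.81 and 3.82 CPM and then 1.73, 2.40 and 2.43 CPM (-0.94, SE 0.32, adjusted p = 0.0378), a call that no set of 5 of the 6 Notch1-/- libraries gave (-1.02 to -0.79).

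Among the ligands, Slit2 rose in WT from 26.1, 12.1 and 45.4 to 81.0, 75.9 and 72.8 CPM (1.46, SE 0.41, adjusted p = 0.0121). In Notch1-/- it was at 11.4, 18.1 and 32.2 CPM (day 0) and 17.6, 16.5 and 17.1 CPM (day 6), a change of -0.27 (SE 0.40, adjusted p = 0.641). The day 6 libraries of the genotypes were far apart, with a difference of -2.16 (SE 0.42, adjusted p = 0.00234). The difference of the changes missed the threshold at -1.73 (SE 0.57, adjusted p = 0.0713). Slit3 rose in both genotypes, by 2.42 (SE 0.37, adjusted p = 0.000256) to 209, 195 and 169.7 CPM in WT and by 1.66 (SE 0.36, adjusted p = 0.00342) to 90.8, 91.0 and 89.7 CPM in Notch1-/-. The genotypes were separate at day 6 (-1.08, SE 0.35, adjusted p = 0.0366), but the call was lost without any 1 of the 6 day 6 libraries (-1.15 to -1.01). At day 0 both genes were highest in library 3 of each genotype, which also had the highest fibroblast markers, and lowest in the library with the lowest fibroblast markers. Slit1 shared 53.5% of its exon length with the locus of Lcor, so its counts are uncertain and FPKM is given. It was listed at 0.699, 0.189 and 0.211 FPKM in WT day 0 and 0.273, 0.258 and 0.316 FPKM in WT day 6. Notch1-/- libraries were at 0.143, 0.0915 and 0.173 FPKM (day 0) and 1.92, 0.668 and 1.35 FPKM (day 6), low everywhere but highest in this last group. On log2(FPKM + 1) in limma the rise in Notch1-/- was 0.99 (adjusted p = 0.00265) and its excess over WT was 1.06 (adjusted p = 0.024). Over the alternatives that kept its locus these adjusted p-values ranged from 2.87e-10 to 0.00685 and from 7.33e-06 to 0.0433.

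Both neuropilins were lower in Notch1-/- than in WT at day 6. Nrp2, a co-receptor for Sema3f and for lymphatic vascular growth factors (chr1:62749233-62865266), was at 76.1, 260.3 and 96.5 CPM in WT day 0 and 315, 349.7 and 325 CPM in WT day 6. In Notch1-/- it went the other way, from 363, 396 and 408 to 74.0, 106 and 51.1 CPM. The libraries of the 2 genotypes did not overlap at either day, but they changed places. Nrp2 rose by 1.19 (SE 0.37, adjusted p = 0.0211) in WT and fell by 2.34 in Notch1-/- (SE 0.39, adjusted p = 0.000662). The difference was -3.53 (SE 0.54, adjusted p = 0.00153). The WT rise was not called without WT day 0 library 1 or 3 (0.89 and 0.97) or WT day 6 library 2 (1.16), and without WT day 0 library 2, the highest of its group, it was 1.94. Nrp1, the co-receptor for Sema3a and for vascular endothelial growth factor (chr8:130881094-131030415), rose in WT from 23.4, 67.7 and 43.3 to 331, 360.3 and 357 CPM (2.96, SE 0.64, adjusted p = 0.00278). In Notch1-/- its libraries varied widely, at 17.9, 80.8 and 132 CPM (day 0) and 104, 83.5 and 25.9 CPM (day 6), with a change of -0.11 (SE 0.60, adjusted p = 0.901). All 3 of them were below all WT libraries at day 6 (-2.30, SE 0.63, adjusted p = 0.0164), but without Notch1-/- day 6 library 3 the difference was -1.89 and was not called. For Nrp1 the difference of the changes, -3.08 (SE 0.87, adjusted p = 0.0382), was lost in 12 of the alternatives. Among them were those without WT day 0 library 1 or 3 (-2.76 and -3.04) and without any 1 WT day 6 library (-3.11 to -3.05). It was also lost without Notch1-/- day 0 library 2 or 3 (-3.06 and -2.46) or Notch1-/- day 6 library 2 or 3 (-3.23 and -2.67).

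Of 5 measured plexins, the signalling receptors of semaphorins, 3 rose in WT and 4 in Notch1-/-, and none fell. These were 60% and 80% called, beside 43.1% and 35.9% of all loci. Plxnd1, an endothelial plexin that binds Sema3e directly (chr6:115904829-115945510), rose from 14.7, 9.03 and 12.7 to 149, 149 and 111 CPM in WT. Values in Notch1-/- went from 7.22, 7.55 and 10.2 to 32.8, 34.8 and 15.1 CPM. Both rises passed the test, at 3.49 (SE 0.31, adjusted p = 7.25e-06) and 1.73 (SE 0.29, adjusted p = 0.000773). Between the genotypes the changes differed by -1.76 (SE 0.41, adjusted p = 0.0156), and the day 6 libraries of the genotypes were separate. Plxna4 and Plxna2, receptors that pair with neuropilins, rose in both genotypes. Plxna4 went from 2.03 CPM or less to 23.5, 25.2 and 21.1 CPM in WT (3.78, SE 0.51, adjusted p = 0.00012). In Notch1-/- it went from 3.00 CPM or less to 41.5, 50.8 and 13.2 CPM (3.95, SE 0.52, adjusted p = 0.000136). Plxna2 rose by 2.42 and 3.80, to 54.6, 58.5 and 53.1 CPM and 91.4, 84.3 and 44.1 CPM, and library 3 of Notch1-/- day 6 was again the lowest of its group for both. Plxnb1, the receptor of Sema4d, rose in Notch1-/- by 0.58, which was not called without Notch1-/- day 0 library 3 (0.425). The rise was also not called with upper quartile scaling or with day 0 library 3 of both genotypes left out. It was higher in Notch1-/- at day 6 (0.71, SE 0.16, adjusted p = 0.0052), at 145, 142 and 164 CPM against 84.2, 93.0 and 98.3 CPM. Plxna1 was at 188 to 305 CPM in all 12 libraries and passed no test.

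The semaphorins, the ligands, moved in both directions. Of the 6 secreted class 3 genes, Sema3f, a Nrp2 ligand, rose in both genotypes (1.60 and 1.18), and Sema3c, known from the cardiac outflow tract, fell in both. Sema3c went from 15.6, 13.9 and 32.6 to 2.04, 2.44 and 3.30 CPM in WT (-3.00, SE 0.49, adjusted p = 0.000459). Its Notch1-/- libraries went from 14.2, 36.2 and 67.0 to 3.93, 4.90 and 5.61 CPM (-3.02, SE 0.49, adjusted p = 0.000587). Its day 0 values spread as the fibroblast markers did, highest in library 3 of each genotype and lowest in the library with the lowest marker sum. Sema3e, the direct ligand of Plxnd1, fell in WT from 42.6, 50.7 and 47.0 to 17.1, 16.4 and 17.6 CPM (-1.46, SE 0.34, adjusted p = 0.0045). Its Notch1-/- libraries were at 18.04, 37.9 and 63.4 CPM (day 0) and 32.4, 43.4 and 57.0 CPM (day 6), a change of 0.15 (SE 0.34, adjusted p = 0.755). It was higher in Notch1-/- at day 6 without overlap (1.38, SE 0.34, adjusted p = 0.01). For Sema3e the difference of the changes, 1.61 (SE 0.48, adjusted p = 0.0473), was lost in 12 alternatives. These left out any WT library (1.53 to 1.68), Notch1-/- day 0 library 2 (1.56), Notch1-/- day 6 library 2 or 3 (1.61 and 1.39), or changed the scaling or the unit. Sema3a, Sema3b and Sema3d passed no test.

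Among the membrane-bound semaphorins, Sema5a and Sema6d rose in both genotypes. Sema5a, which carries thrombospondin repeats, rose from 13.1, 4.52 and 8.70 to 72.1, 86.3 and 85.0 CPM in WT (3.21, SE 0.36, adjusted p = 3.49e-05). The gene went in Notch1-/- from 4.02, 8.18 and 8.96 to 26.5, 23.2 and 26.6 CPM (1.85, SE 0.35, adjusted p = 0.0015). At day 6 all its Notch1-/- libraries were below all WT libraries (-1.68, SE 0.34, adjusted p = 0.00335). Sema6d, a transmembrane ligand of Plxna1, rose by 3.19 in WT and 2.85 in Notch1-/-, to 48.3, 47.8 and 35.1 CPM and 59.3, 26.6 and 24.4 CPM. Sema6a, a transmembrane ligand of class A plexins, reached 152, 158 and 261 CPM in Notch1-/- day 6 and 26.6, 29.2 and 33.0 CPM in WT day 6. The groups did not overlap and differed by 2.69 (SE 0.49, adjusted p = 0.00166). Its day 0 libraries spread from 7.25 to 35.9 CPM, and the difference of the changes was 2.13 (SE 0.66, adjusted p = 0.0561), short of the threshold.

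Sema4a, Sema4b, Sema4d and Sema7a, which is held by a lipid anchor, fell in WT. Sema4b fell in both genotypes, by 1.72 in WT and by 1.27 in Notch1-/- on the log2 scale, to 34.4, 35.5 and 39.8 CPM and 40.9, 50.1 and 56.4 CPM. Sema4d, the ligand of Plxnb1, fell in WT to 23.7, 23.3 and 26.4 CPM (-1.66, SE 0.32, adjusted p = 0.00146) and was at 41.2, 39.0 and 69.8 CPM in Notch1-/- day 6 (-0.09, SE 0.32, adjusted p = 0.855). For Sema4d the deposited FPKM is 0 in Notch1-/- day 0 libraries 2 and 3 beside 4562 and 3997 counted reads, so its FPKM is not used. It was higher in Notch1-/- at day 6 by 1.03, not called without any 1 WT day 6 library (1.00 to 1.09) or Notch1-/- day 6 library 3 (0.72). The difference of its changes, 1.57 (SE 0.45, adjusted p = 0.0411), was lost without WT day 0 library 1 or 3 (1.43 each) and without any 1 WT day 6 library (1.53 to 1.62). It was also lost without Notch1-/- day 0 library 2 or 3 (1.38 each) or Notch1-/- day 6 library 3 (1.25). Sema4a fell in WT by 1.79 (SE 0.38, adjusted p = 0.00244). It was higher in Notch1-/- at day 6 by 1.13 (SE 0.38, adjusted p = 0.04). That genotype call was lost without any 1 WT day 6 library (1.04 to 1.25) and without Notch1-/- day 6 library 2 or 3 (1.26 and 0.81). Sema7a fell in WT by 1.85 (SE 0.45, adjusted p = 0.00532). Sema5b and Sema6b passed no test.

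Of the 6 EphA receptors, Epha1 and Epha2 were higher and Epha4 was lower in Notch1-/- at day 6, and the difference of the changes was positive for all 3. Epha1 (chr6:42278712-42328105) was at 11.6, 12.2 and 11.5 CPM in WT day 0, 8.49, 9.60 and 11.1 CPM in WT day 6 and 8.77, 7.27 and 9.61 CPM in Notch1-/- day 0. In Notch1-/- day 6 it reached 49.7, 51.6 and 45.9 CPM. The rise in Notch1-/- was 2.52 (SE 0.17, adjusted p = 3.95e-06), and the WT change was -0.28 (SE 0.16, adjusted p = 0.182). The difference of 2.80 (SE 0.23, adjusted p = 6.58e-05) passed in every alternative run. Of its exon length, 31.6% is shared with the locus of Zyx. Epha4, which binds ephrins of both types (chr1:77363758-77511663), differed before differentiation, at 128, 107 and 97.1 CPM in WT day 0 and 26.4, 17.1 and 16.5 CPM in Notch1-/- day 0. At day 6 it was at 122, 128 and 142 CPM in WT and 75.6, 60.4 and 56.5 CPM in Notch1-/-, still lower without overlap. The genotype difference was -2.47 (SE 0.20, adjusted p = 1.4e-05) at day 0 and -1.03 (SE 0.19, adjusted p = 0.00182) at day 6. Epha4 rose in Notch1-/- by 1.69 (SE 0.20, adjusted p = 6.21e-05) where the WT change was 0.24 (SE 0.19, adjusted p = 0.324). Epha7 rose in both genotypes, from 11.4, 15.3 and 9.04 to 32.0, 37.0 and 38.0 CPM in WT (1.58, SE 0.26, adjusted p = 0.00044). Values in Notch1-/- went from 4.31, 4.15 and 7.18 to 34.9, 34.5 and 23.9 CPM (2.58, SE 0.27, adjusted p = 3.26e-05).

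Epha2, a receptor abundant in ES cells, shared 65.4% of its exon length with another locus, so its counts are uncertain and FPKM is given. It was at 59.3, 83.3 and 62.6 FPKM in WT day 0 and 52.4, 88.6 and 59.2 FPKM in Notch1-/- day 0, the highest of the EphA receptors in every one of these libraries. At day 6 it was at 10.1, 10.7 and 15.0 FPKM in WT and 32.8, 43.4 and 36.6 FPKM in Notch1-/-, lower in WT without overlap. On log2(FPKM + 1) in limma it fell by 2.43 in WT (adjusted p = 1.54e-05) and by 0.78 in Notch1-/- (adjusted p = 0.0189), and the difference was 1.65 (adjusted p = 0.00622). Over the alternatives that kept its locus the adjusted p ranged from 9.63e-15 to 0.000291 in WT, from 0.00353 to 0.082 in Notch1-/- and from 0.00225 to 0.0519 for the difference. By counts, the fall in Notch1-/- was not called without Notch1-/- day 0 library 2 (-0.59) or Notch1-/- day 6 library 1 or 3 (-0.79 and -0.85). Epha5 rose in WT by 2.31 (SE 0.44, adjusted p = 0.00128) but stayed at 1.29 CPM or less, and Epha3, under 1 CPM in every library, passed no test.

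Ephb1, Ephb4 and Ephb6 rose in both genotypes, and no EphB receptor passed a test between them. Ephb4, the receptor of venous endothelium, rose to 112, 112 and 94.2 CPM in WT (1.40, SE 0.26, adjusted p = 0.00093). In Notch1-/- it rose to 69.7, 63.2 and 74.0 CPM (1.58, SE 0.26, adjusted p = 0.000598), and 40.75% of its exon length is shared with the locus of Srrt. Ephb6, which lacks kinase activity, rose by 1.33 and 1.64, and Ephb1 by 3.29 and 2.62 from under 1 CPM to at most 5.75 CPM. The 95% interval of the difference between the changes was -0.59 to 0.95 for Ephb4, -0.43 to 1.03 for Ephb6 and -1.86 to 0.52 for Ephb1. Differences within these bounds are not excluded. Ephb2 and Ephb3 passed no test, and Ephb2 was at 88.6, 101 and 83.2 CPM in WT day 6 and 50.05, 31.3 and 40.0 CPM in Notch1-/- day 6 (-1.17, SE 0.44, adjusted p = 0.066).

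All 4 measured A-type ephrins rose in Notch1-/- (100% called, beside 35.9% of all loci) and 3 of them in WT (75%, beside 43.1%). Efna5 rose from between 3.84 and 8.25 CPM at day 0 to 32.8, 34.1 and 34.0 CPM in WT (2.21, SE 0.23, adjusted p = 2.11e-05). In Notch1-/- it rose to 35.4, 36.4 and 40.2 CPM (2.94, SE 0.24, adjusted p = 7.73e-06). Efna2 rose by 1.14 and 1.17. Efna1 and Efna3 parted at day 6. Efna1, an ephrin of endothelium and epithelium, was at 47.3, 33.4 and 19.9 CPM in WT day 6 and 12.6, 9.15 and 7.77 CPM in Notch1-/- day 6. The difference, -1.77 (SE 0.45, adjusted p = 0.0116), was not called without WT day 6 library 1 (-1.44) or Notch1-/- day 6 library 3 (-1.62). Its rise in Notch1-/-, 1.39 (SE 0.45, adjusted p = 0.0295), was not called without Notch1-/- day 0 library 2 or 3 (1.11 and 1.13) or Notch1-/- day 6 library 1 or 2 (1.18 and 1.43). Efna3 was at 20.4, 18.5 and 21.5 CPM in WT day 6 and 60.4, 67.3 and 31.4 CPM in Notch1-/- day 6. The difference, 1.40 (SE 0.37, adjusted p = 0.0144), was not called without WT day 6 library 2 (1.34) or Notch1-/- day 6 library 2 (1.18).

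Of the B-type ephrins, Efnb1 (chrX:96331363-96345232) rose from 19.0, 10.7 and 15.9 to 94.9, 107 and 74.7 CPM in WT (2.60, SE 0.32, adjusted p = 5.84e-05). In Notch1-/- it went from 5.45, 8.53 and 8.98 to 26.6, 20.4 and 11.7 CPM (1.35, SE 0.31, adjusted p = 0.0046). At day 6 every Notch1-/- library was below every WT library (-2.24, SE 0.31, adjusted p = 0.000271), and without Notch1-/- day 6 library 3, the lowest, the difference was -1.96. The difference of the changes, -1.25 (SE 0.43, adjusted p = 0.0797), missed the threshold. Efnb2, the ephrin of arterial endothelium, rose in WT by 0.82 (SE 0.30, adjusted p = 0.044). The rise was not called without WT day 0 library 1 or 2 (0.68 and 0.78) or any 1 WT day 6 library (0.62 to 0.93). Values in Notch1-/- were at 30.2, 53.2 and 78.5 CPM (day 0) and 64.2, 79.7 and 94.1 CPM (day 6) (0.56, SE 0.30, adjusted p = 0.171). Its genotype difference at day 6 was 0.12 with a 95% interval of -0.54 to 0.77.

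Between the genotypes, 5 guidance genes were called before differentiation and 23 after it, and the difference between these counts was not tested. At day 0, 1 member was higher in Notch1-/- (Nrp2) and 4 were lower (Epha4, Ntn4, Epha7 and Robo2), 9.43% of the 53 where 9.56% of all loci were called, so the share among the members was near that of all loci (3.71% higher and 5.86% lower). Without overlap of the libraries, 2 members were higher and 8 lower, beside 8.65% and 11.9% of all loci. With the replicate number as a block, 1 was higher and 7 were lower. Epha4 passed in every alternative run, whereas Robo2 (-1.13, SE 0.32, adjusted p = 0.0454) was lost in 11 of them and Ntn4 (-2.03, SE 0.48, adjusted p = 0.0196) in 8. Nrp2 (1.43, SE 0.38, adjusted p = 0.0324) was lost in 6 and Epha7 (-1.20, SE 0.26, adjusted p = 0.0125) in 4. Among these were fits without WT day 0 library 1 (Nrp2 1.12, Robo2 -0.78), without WT day 0 library 3 (Nrp2 1.21, Ntn4 -1.38, Robo2 -1.18) and without Notch1-/- day 0 library 1 (Robo2 -1.17). Others were without Notch1-/- day 0 library 2 (Nrp2 1.43, Ntn4 -1.75, Epha7 -1.05, Robo2 -0.92) and without Notch1-/- day 0 library 3 (Nrp2 1.41, Ntn4 -2.06, Robo2 -1.31). Without WT day 0 library 2, its highest WT library, Nrp2 differed by 2.18.

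At day 6, 11 members were higher and 12 lower in Notch1-/-, 43.4% of the 53 beside 28.1% of all loci (13.7% higher and 14.4% lower). The median difference was -0.165, beside 0.0119 for all loci. Without overlap of the libraries, 18 members were higher and 19 lower, beside 29.8% and 29.4% of all loci. The lower ones were Robo2 (-5.24), Unc5c, Plxnd1, Nrp1, Efnb1, Slit2, Nrp2, Efna1, Sema5a, Unc5b, Slit3 (-1.08) and Epha4. The higher ones were Ntn1 (2.95), Sema6a, Epha1, Slit1, Epha2, Efna3, Sema3e, Sema4a, Sema4d, Robo1 (0.87) and Plxnb1. Both directions held ligands and receptors. For the netrin system the ligand Ntn1 was higher and the receptors Unc5b and Unc5c were lower, and for slits the receptors Robo1 and Robo2 differed in opposite directions. The Robo1 call, however, was lost in 8 alternatives. In total 28 members were called at neither day, and 9 were lower and 11 higher at day 6 only. Epha4 and Robo2 were lower at both days, Ntn4 and Epha7 were lower at day 0 only, and Nrp2 was higher at day 0 and lower at day 6. Fibroblast, cardiac, endothelial and visceral endoderm marker sums were also lower, and neural and pluripotency sums higher, in Notch1-/- at day 6. Not every marker followed its sum: of 21 fibroblast markers, 11 were called lower and 2 higher (61.9%, beside 28.1% of all loci). Of 12 pluripotency markers, 3 were called higher and none lower (25%, near the 28.1% of all loci). The part of these cell types in the differences of the members was not tested.

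**Figure D4:**
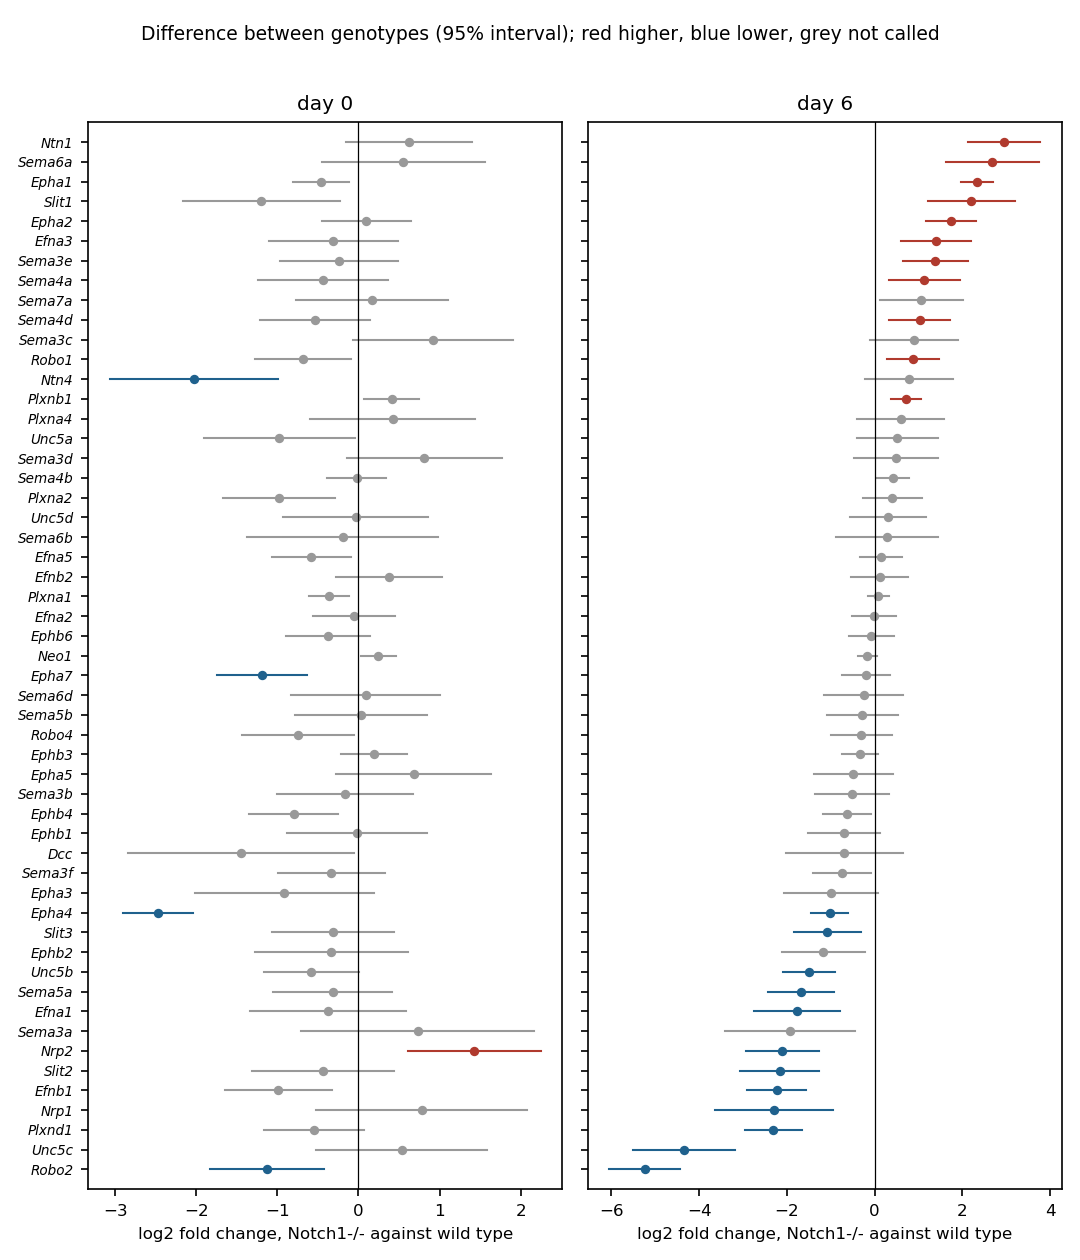
Log2 difference of Notch1-/- minus WT at day 0 and at day 6 for each of the 53 members, sorted by the day 6 value, with 95% intervals. Intervals at day 0 mostly cross 0, with Epha4 at -2.47 as the exception farthest from it, and at day 6 the values run from -5.24 for Robo2 to 2.95 for Ntn1.

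FPKM, which allows genes to be compared, showed which member made up most of each family. The netrin receptors summed to 25.2 ± 8.32 FPKM (mean ± SD) in WT day 0, 115 ± 6.16 in WT day 6, 19.5 ± 1.82 in Notch1-/- day 0 and 40.7 ± 4.99 in Notch1-/- day 6. Unc5b led this family in both genotypes at day 6 (64.2% and 61.4% of the sum), but Unc5c made up 21.5% in WT day 6 and 3.14% in Notch1-/- day 6. For the robos, Robo2 made up 54.1% in WT day 6 and 2.02% in Notch1-/- day 6, where Robo1 held 95.3%. The summed robo level at day 6 was 16.8 ± 1.90 FPKM in WT and 13.1 ± 1.98 FPKM in Notch1-/-, closer than the level of either receptor alone. EphA receptors summed to 88.3 ± 11.9 FPKM in WT day 0, 33.0 ± 6.02 in WT day 6, 73.6 ± 17.9 in Notch1-/- day 0 and 82.1 ± 5.74 in Notch1-/- day 6. Epha2, whose locus is uncertain, made up 77.1% of this sum in WT day 0 and 90% in Notch1-/- day 0. At day 6 it made up 35.9% in WT and 45.7% in Notch1-/-, so the EphA sums are uncertain too. At day 6 Epha4 made up 40.5% in WT and 7.59% in Notch1-/- while Epha1 made up 12.1% and 43.0%.

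Neuropilins summed to 20.9 ± 11.7 and 72.2 ± 2.97 FPKM in WT at day 0 and day 6, and to 47.9 ± 8.76 and 15.0 ± 6.32 FPKM in Notch1-/-. The order of the days was thus reversed, with Nrp1 at 55.0% and 48.8% of the sum at day 6. Slits summed to 25.4 ± 2.62 FPKM in WT day 6 and 12.3 ± 0.865 in Notch1-/- day 6, with Slit3 at 73.7% and 78.7%. A-type ephrins summed to 39.2 ± 6.32 and 48.7 ± 13.2 FPKM at day 6, values within their spread. Efna1 made up 38.4% in WT and 9.06% in Notch1-/-, and Efna3 33.2% and 67.6%. These shares are means of the share in each library and show unequal levels, not which member changed.

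**Figure D5:**
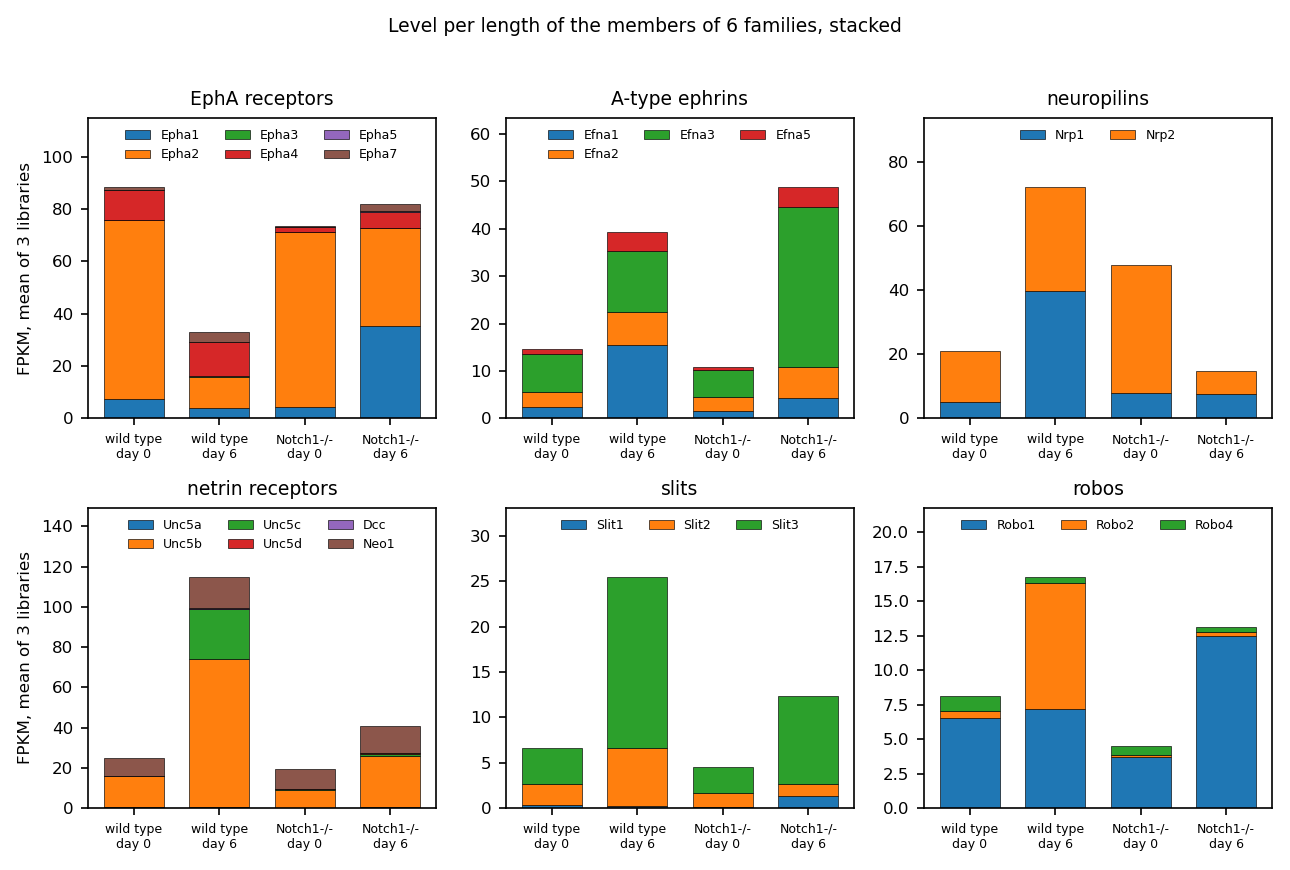
Mean FPKM of the members of 6 guidance families, stacked, in the 4 groups (n = 3 libraries each). The netrin receptor bar is highest in WT day 6 (115 FPKM against 40.7 in Notch1-/- day 6), while the A-type ephrin bars of the 2 genotypes are similar at day 6 (39.2 and 48.7 FPKM) but differ in makeup.

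Genes of the same families outside the 57, and the proteins that carry guidance signals inside the cell, were counted in the same fit. Of 21 other family genes, 18 were tested: 3 rose and 3 fell in WT (33.3% called, beside 43.1% of all loci), and 6 rose and 2 fell in Notch1-/- (44.4%, beside 35.9%). At day 6, 4 were higher and 2 lower in Notch1-/- (33.3%, beside 28.1%). At day 0, 1 was higher and none lower (5.56%, beside 9.56%), and the difference of the changes was positive for 2 and negative for 1 (16.7%, beside 11.3%). Epha6 and Epha8, further EphA receptors, were higher in Notch1-/- at day 6 (3.05, SE 0.56, adjusted p = 0.00178, and 2.75, SE 0.45, adjusted p = 0.000787). This was the direction of Epha1 and Epha2 and the opposite of Epha4. Both were low, Epha6 at 0.874 CPM or less and Epha8 at 8.43 CPM or less in every library. Epha10 had means of 1.26 CPM in WT day 6 and 1.66 CPM in Notch1-/- day 6. Flrt3, a membrane protein that binds Unc5 receptors and Robo1, was lower in Notch1-/- at day 6 (-1.80, SE 0.26, adjusted p = 0.000368). Unc5c went in the same direction and Robo1 in the opposite one. Of 37 listed signalling genes, 31 were tested: 14 rose and 3 fell in WT (54.8%, beside 43.1% of all loci), and 12 rose and 3 fell in Notch1-/- (48.4%, beside 35.9%). At day 6, 3 were higher and 13 lower in Notch1-/- (51.6%, beside 28.1%). At day 0, none was higher and 1 lower (3.23%, beside 9.56%), and the difference of the changes was positive for 2 and negative for 6 (25.8%, beside 11.3%). The 3 higher were Ngef (1.02) and, of the collapsin response mediator family downstream of semaphorins, Crmp1 and Dpysl5 (2.28, SE 0.28, adjusted p = 0.000112, and 2.12, SE 0.23, adjusted p = 4.84e-05). Dpysl2 of that same family was lower (-1.22, SE 0.28, adjusted p = 0.00624). Mical2, of a family of actin-oxidising enzymes downstream of plexins, was lower (-2.68, SE 0.44, adjusted p = 0.000768). The others of the 13 were Kalrn (-1.57), Farp1 (-1.55), Rnd3, Vav3, Mical1, Srgap3, Nck2, Srgap1, Farp2, Fyn and Arhgef12 (-0.43).

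The 4 members without a locus of their own can be followed only together with their neighbours. The locus that joins Wrap53 and Efnb3 went from between 82.0 and 105 CPM at day 0 to 244, 263 and 196 CPM in WT day 6 and to 113, 119 and 98.9 CPM in Notch1-/- day 6. The genotype difference of -1.09 at day 6 cannot be assigned to either gene. The loci that join Plxnb2 with Dennd6b, Sema4c with Fam178b, and Efna4 with Adam15 and Dcst1 were at 324 to 366, 94.9 to 107 and 69.7 to 76.4 CPM in WT day 6. In Notch1-/- day 6 they were at 274 to 304, 69.0 to 76.1 and 57.3 to 70.7 CPM. Of the 53 members, 8 had fewer than 100 counts in at least 1 library, with a lowest value of 4 counts, which limits the precision of their values. No member was at 0 in any library.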

How the data were processed

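RNA of 12 samples was sequenced as poly(A) libraries with paired 100-base reads. Per the submitters' processing notes the tools were HTSeq 0.5.4p3, TopHat2 2.0.8, DESeq and Cufflinks 2.1.1, and the build was mm9. Whether counting used strand is not given in the sources used here, so reads of overlapping antisense genes cannot be told apart. The authors deposited whole-number counts per assembled locus and FPKM values per locus, 12 columns each, with the merged transcript models. The counts were used as deposited, and log2 values are from the fits.

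Loci carry no gene names. Each was linked to a gene by chains of intron, exon and intron lengths matched between the deposited models and GENCODE M21 (GRCm38) on the same chromosome and strand, with at least 75% of links to 1 gene: 16319 loci had 1 gene, 1010 several and 22710 none. No coordinates were converted, and locus coordinates are mm9. A locus is treated as uncertain where 50% or more of its exon length also lies in a second locus.

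Counts were tested with edgeR 4.0.16 (R 4.3.3): filterByExpr, TMM scaling, 1 quasi-likelihood fit with 4 group means over 12 libraries, 5 contrasts, and Benjamini-Hochberg adjustment over 23991 loci, with calls at adjusted p under 0.05. SE is the log2 value over the root of F. Scripts were tested on simulated data. Alternatives used upper quartile and RLE scaling, no filter, a filter on shared loci, only the groups compared, a replicate block, DESeq2 1.42.0, limma 3.58.1 on log2(FPKM + 1) or log2(FPKM + 0.1), and each library left out. Named genes are, per contrast, up to 8 called members in each direction with the greatest change and mean log2 CPM of at least 0, and further genes chosen after their values were seen. The members and all lists were chosen with earlier results of these data known.

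Same-numbered libraries of the 2 genotypes deviated together at day 0 (r = 0.398, 0.275 and 0.165 across loci, which are not independent replicates). The labels state no pairing, and WT library 2 with Notch1-/- library 3 also gave r = 0.132. Whether the numbers mark pairs is therefore not known. Replicates differed by more than sampling noise (chi-square per degree of freedom 41.3 to 404).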

Additional observations from a re-analysis of the deposited data

Results flagged for a closer look

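For 14 guidance genes the change from day 0 to day 6 differed between the genotypes by the interaction term of the edgeR fit; values are the log2 change in Notch1-/- minus that in WT. The value was negative for Unc5c (-4.88), Robo2 (-4.11), Nrp2 (-3.53), Nrp1 (-3.08) and Plxnd1 (-1.76). It was positive for Slit1 (3.40), Ntn4 (2.82), Epha1 (2.80), Ntn1 (2.32), Epha2 (1.65), Sema3e (1.61), Sema4d (1.57), Robo1 (1.56) and Epha4 (1.44). In the alternatives run, Unc5c, Robo2, Nrp2, Epha1, Slit1, Ntn1 and Epha4 passed each time they were tested. The counts of Slit1 and Epha2 are uncertain, and the filter on shared loci removed both, so that alternative did not test them. For Slit1 the lowest value of the alternatives was 1.06, on log2(FPKM + 1). Groups of 3 libraries are too small for a test of single outlying values, and none was run.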

How the results depend on the processing

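No called value changed direction. Across alternatives 1048 values of named genes kept their side of the threshold and 115 lost it. Counts of called members ranged, with 1 library left out at a time, from 33 to 37 in WT, from 28 to 33 in Notch1-/-, from 18 to 23 for genotype at day 6, from 1 to 14 for genotype at day 0 (main count 5) and from 9 to 22 for the difference of the changes (main count 14). The day 0 extremes came without Notch1-/- day 0 library 2 (1) and without WT day 0 library 2 (14), with 2 without WT day 0 library 3 and 8 without Notch1-/- day 0 library 1. For the difference they came without WT day 6 library 2 (9) and without Notch1-/- day 0 library 1 (22). At day 0 the count was also 1 with only the groups compared, 10 with DESeq2, and 2 with limma on log2(FPKM + 1), with or without the filter. The difference of the changes gave 22 with DESeq2. With the replicate number as a block the counts were 41, 36, 8 (day 0), 26 (day 6) and 18, and the block moved none but that of day 0 by over 1.5 times. In the other comparisons same-numbered libraries correlated at 0.172 or less (r = 0.13, 0.127 and 0.0483 in WT, 0.172, 0.119 and -0.0323 in Notch1-/-, 0.118, 0.0816 and -0.0115 between genotypes at day 6). Such weak values cannot show whether the numbers pair the samples. In WT every library correlated best with its own number, which is a hint from the data and not the design. In Notch1-/- and between genotypes at day 6 not every library did. The cause of these differences was not tested. Over all loci the day 0 test called 2294, against 706 with only the groups compared, 3714 with DESeq2, 1263 and 1433 with limma at pseudocounts of 1 and 0.1, and 1124 to 5983 with 1 library left out. For genotype at day 6 it called 6741, against 11055 with only the groups compared and 4285 and 4435 without WT day 6 library 1 or 2, and for the difference 2708, against 4099 with DESeq2 and 1619, 1434 and 1787 without WT day 6 library 1 or 2 or Notch1-/- day 6 library 3. An alternative chosen after seeing the data left out day 0 library 3 of both genotypes, with the highest fibroblast markers: it called 34, 32, 4, 24 and 11 members in the 5 comparisons in the order used in the report, 1002 loci at day 0 and 1500 for the difference, and lost 6 of the 14 differences: Plxnd1 (-1.62), Epha2 (1.64), Nrp1 (-2.41), Ntn4 (2.21), Robo1 (1.41) and Sema4d (1.26). Without Notch1-/- day 6 library 3 the counts were 29 in Notch1-/-, 18 at day 6 and 13 for the difference. Depth limits the 8 members under 100 counts in a library.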
